A study of Oreochromis niloticus with 6 samples.

Results

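The nuclear-encoded genes of the mitochondrial respiratory chain and of ATP synthase were followed in the liver of Nile tilapia (Oreochromis niloticus), a farmed cichlid fish, under a fat-rich diet. Members were chosen by gene name: names of NADH dehydrogenase (nduf), succinate dehydrogenase (sdh), cytochrome bc1 (uqcr and cyc1), cytochrome c oxidase (cox4 to cox8) and ATP synthase (atp5) subunits, without assembly factors and without gene IDs that carry several gene names. This gave 61 of the 26490 gene IDs in the mRNA table, 30 in complex I, 3 in complex II, 7 in complex III, 8 in complex IV and 13 in complex V. The fish were wild-type juvenile males of GIFT, a farmed strain selected for growth. The HFD group ate a diet with 18.5% lipid and the NFD group one with 8% lipid, both for 56 days. There were 6 libraries of total liver RNA after removal of ribosomal RNA, 3 from HFD and 3 from NFD livers. The labels call them biological replicates but also say that RNA of 3 samples was pooled within a diet, so the spread behind each p-value is that of libraries and may be technical.

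The respiratory chain moves electrons from NADH (complex I) and succinate (complex II) through ubiquinone, complex III and cytochrome c to oxygen at complex IV. Complexes I, III and IV pump protons, and complex V uses the proton gradient to make ATP. In the liver this is where the reducing power released by fatty acid oxidation is spent. All subunits of complex II are nuclear genes, whereas the other complexes also contain subunits encoded in mitochondrial DNA. None of the gene names looked for among the mitochondrially encoded subunits was matched in the table, and those subunits were not analysed here.

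Levels are FPKM as given by the authors, that is, fragments scaled to transcript length and to the total of the library. The summed FPKM per library ran from 141024 to 170847; the depth in reads is unknown. Tests used log2(FPKM + 0.5) and genes with at least 0.5 FPKM in 3 or more libraries, which left 9204 gene IDs, among them 53 members. Of the 8 members left out, 5 were listed at 0 in every library and 3 had an FPKM below 0.5 in every library. In bulk liver, fewer cells of a type and less RNA per cell cannot be told apart.

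No member passed the test of HFD against NFD livers. In limma, 0 of the 53 tested members had an adjusted p under 0.05, where the count over all genes was also 0 of 9204 (0%). At an unadjusted p under 0.05 there were 2 members, ndufa5 and atp5l, both lower in HFD. That is 3.77% of the members, against 6.02% of all tested genes. Most differences were small: 49 of the 53 log2 fold changes lay within 0.5 of 0 (92.5%, against 81.4% of all tested genes), and the median standard error was 0.21. The members were also steadier than most genes across all 6 libraries, since the highest library was less than 2 times the lowest for 42 members (79.2%, against 38.3% of all tested genes). They were also more abundant, with a median of mean levels of 9.29 FPKM, against 1.66 FPKM over all tested genes. Steadiness was not compared at equal level. Of the 53 members 42 were lower in HFD (79.2%, against 49.6% of all tested genes), and their median log2 fold change was -0.13, against 0.0031 over all tested genes. Members were lower in 24 of 27 tested genes of complex I, 1 of 3 of complex II, all 5 of complex III, 4 of 7 of complex IV and 8 of 11 of complex V. Without NFD replicate 3 the members lower in HFD were 30 of 52 and the median log2 fold change was -0.03. Over all tested genes the values without that library were 47.1% and 0.02. Without HFD replicates 1, 2 or 3, the members lower in HFD were 40 of 53, 41 of 52 and 41 of 53. They were 47 of 53 without NFD replicate 1 (against 57.9% of all tested genes) and 42 of 52 without NFD replicate 2.

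**Figure D1:**
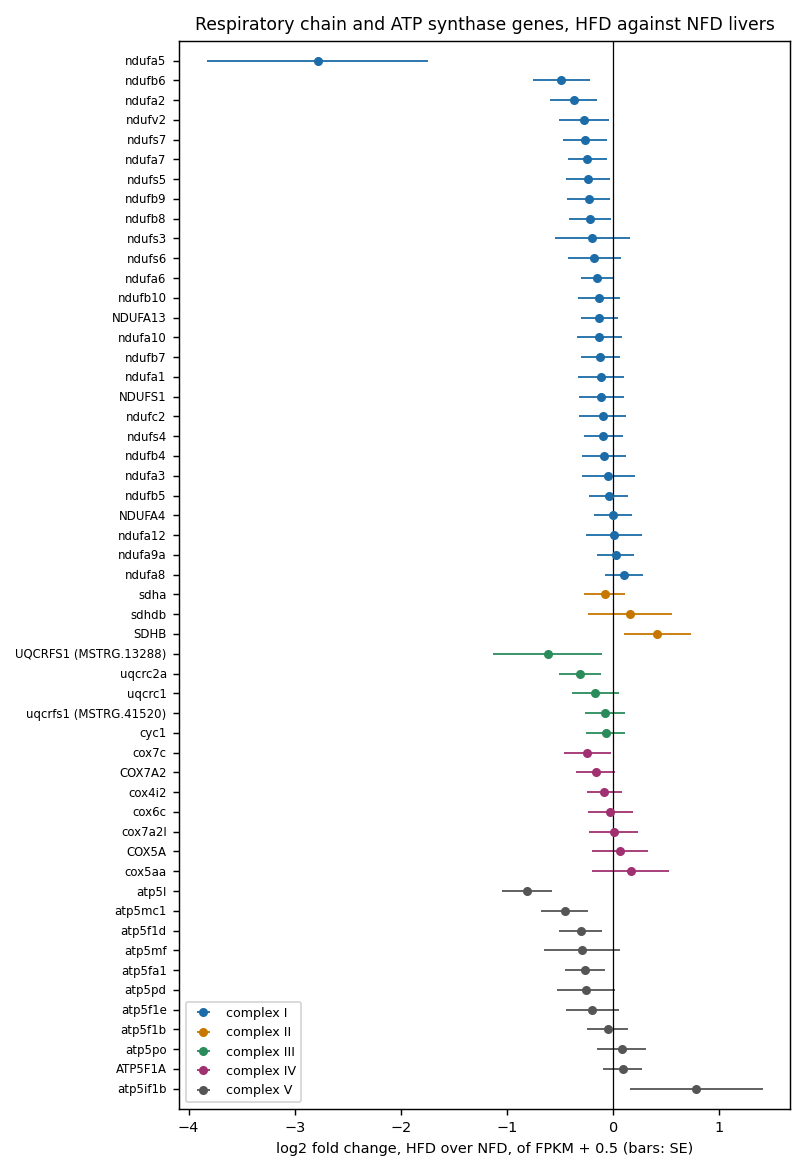
Log2 fold change of FPKM + 0.5, HFD over NFD, for the 53 tested genes, coloured by complex and ordered by size within it; bars are standard errors from limma. Most points lie left of 0, many but not all of them with bars that reach or cross it. The gene ndufa5 stands apart at -2.78, and atp5if1b is the farthest to the right at 0.78.

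On the deposited scale the NFD libraries differed more among themselves than the diets did (median log2 fold change of the members -0.13), whereas the HFD libraries lay close together. NFD replicate 3 was the highest library for 31 of the 53 members (58.5%, against 21.2% of all tested genes), and NFD replicate 1 was the lowest for 18 (34%, against 28.5%). The median deviation of the members from their own 6-library means was -0.05, -0.08 and -0.03 on the log2(FPKM + 0.5) scale in HFD replicates 1 to 3, against -0.13, 0.08 and 0.23 in NFD replicates 1 to 3. Over all tested genes the same medians were 0.06, -0.04 and -0.01 in HFD and -0.13, 0.10 and 0.05 in NFD. The low position of NFD replicate 1 was thus shared with the other genes of that library, whereas NFD replicate 3 was 0.23 for the members and 0.05 for all genes. On the deposited scale the 3 HFD libraries thus lay between NFD replicate 1 and NFD replicates 2 and 3. After trimmed-mean centring of the libraries this order no longer held: the members' median deviations were -0.11, -0.02 and -0.01 in HFD replicates 1 to 3, against 0.03, -0.02 and 0.15 in NFD replicates 1 to 3. NFD replicate 3 was then the highest library for 24 of 53 members, against 1483 of the 9204 tested genes. The lowest library was HFD replicate 1 for 21 members and NFD replicate 1 for 5. On the centred scale 41 of 53 members were lower in HFD, against 47.9% of all tested genes. Their median log2 fold change was -0.11, against 0.016 over all tested genes.

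**Figure D2:**
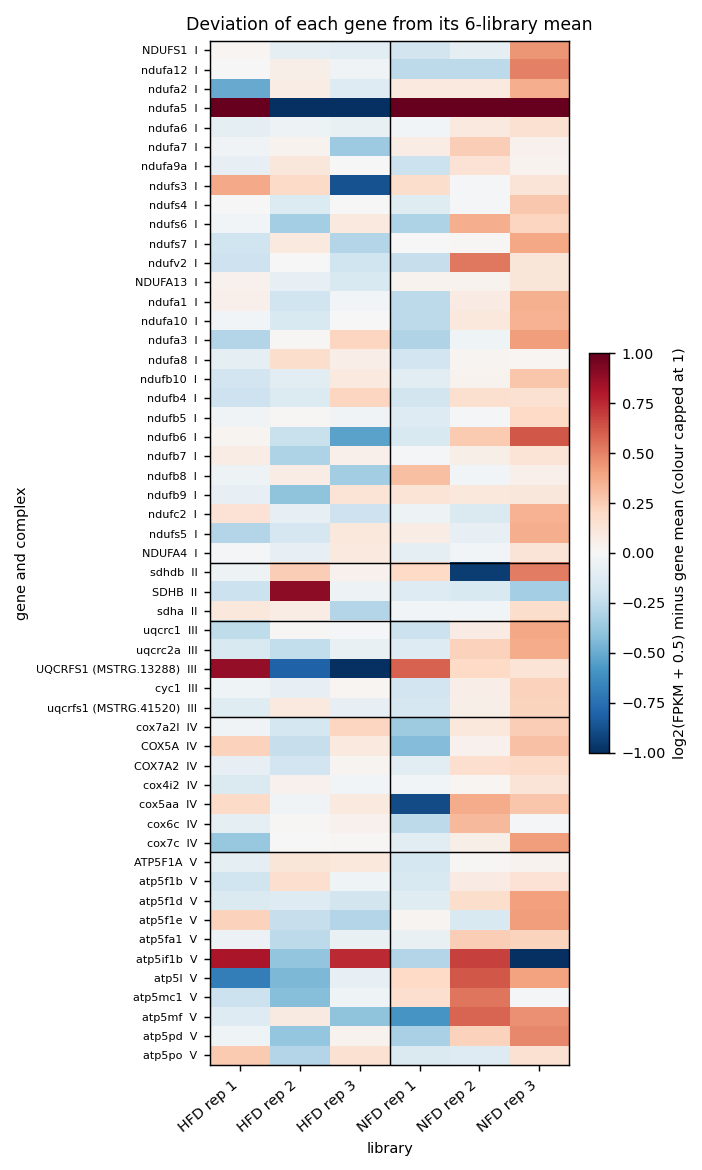
Deviation of log2(FPKM + 0.5) from each gene's mean over the 6 libraries, with genes in rows grouped by complex (the numeral after the name), HFD libraries left and NFD libraries right; colour is capped at 1 in either direction. The column of NFD replicate 3 is the reddest, with a median of 0.23. Single libraries that stand far from the rest are seen for ndufa5, ndufs3, UQCRFS1, sdhdb, cox5aa, SDHB and atp5if1b, among others.

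Complex I, the largest of the 5, is built of a matrix arm that takes electrons from NADH and a membrane arm that pumps protons. In the matrix arm 10 of 12 tested genes were lower in HFD (median log2 fold change -0.19). The accessory subunit ndufa5 (MSTRG.27146), part of the quinone-reducing module, was at 14.7, 0.432 and 0.699 FPKM in HFD replicates 1 to 3, against 15.8, 18.8 and 17.2 FPKM in NFD replicates 1 to 3. HFD replicate 1 thus lay just below the NFD libraries, while HFD replicates 2 and 3 were near 0. Its log2 fold change of -2.78 ± 1.04 (SE) did not pass (limma, adjusted p = 0.817). Leaving out HFD replicate 1, the HFD library in which ndufa5 was not near 0, gave -4.07 (limma, adjusted p = 0.0506). That step removes the HFD value closest to the NFD libraries, so no conclusion is drawn from the smaller p. The log2 fold change was -2.05 without HFD replicate 2 and -2.23 without HFD replicate 3 (limma, adjusted p = 0.886 and 0.996). Of the 53 members ndufa5 alone spanned 3 or more on the log2(FPKM + 0.5) scale over the 6 libraries (1.89%, against 4.78% of all tested genes). Only 1 transcript of this gene ID is listed; 25415 of the transcript numbers up to 78588 are in neither table and were not analysed here.

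The other members of the matrix arm lay between -0.37 and 0.02 in log2 fold change. Ndufa2 (MSTRG.29979), an accessory subunit of the NADH-binding module, was at 15.4, 23.2 and 20.1 FPKM in HFD, against 23.6, 23.7 and 28.4 FPKM in NFD. All 3 HFD libraries lay below the NFD libraries, but the nearest values were 23.2 in HFD and 23.6 FPKM in NFD; the log2 fold change was -0.37 ± 0.22 (SE; limma, adjusted p = 0.907). Ndufa7 (MSTRG.16165), an accessory subunit of the matrix arm, was at 0.966, 1.04 and 0.665 FPKM in HFD, against 1.08, 1.28 and 1.05 FPKM in NFD. Ndufa6 (MSTRG.7477), an accessory subunit of the LYR family, was at 1.35, 1.41 and 1.38 FPKM in HFD, against 1.45, 1.61 and 1.71 FPKM in NFD. These 3 genes also had libraries that did not overlap between diets, with log2 fold changes of -0.24 ± 0.18 for ndufa7 and -0.15 ± 0.15 for ndufa6 (SE). The most abundant member of the arm was ndufa12 (MSTRG.14716), at 28.4, 29.7 and 27.9 FPKM in HFD, against 23.7, 23.7 and 40.7 FPKM in NFD. Its HFD libraries lay inside the NFD range, and NFD replicate 3 alone was high.

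Among the subunits that carry the electrons, levels differed widely. Ndufs7, which holds the last iron-sulfur cluster before ubiquinone, was at 7.83 ± 1.22 FPKM in HFD and 9.53 ± 1.6 FPKM in NFD (SD, n = 3 each). Ndufs3, a core subunit beside it, was at 14.2, 12.4 and 5.68 FPKM in HFD, against 12.2, 10.7 and 11.8 FPKM in NFD, so that HFD replicate 3 alone was low. NDUFS1, the subunit with the most iron-sulfur clusters, was at 1.09 ± 0.0743 FPKM in HFD and 1.25 ± 0.428 FPKM in NFD (SD, n = 3 each). Ndufv1, which binds NADH, is a core subunit that the enzyme needs to work, and it was listed at 0 in all 6 libraries. An exact 0 can be a failed estimate, so such genes are described only as listed at 0.

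In the membrane arm 13 of 14 genes were lower in HFD (median log2 fold change -0.12), and the differences ran from -0.49 to 0.10. Ndufb5 alone of these turned above 0 with quantile normalization. The count for this arm was not repeated with single libraries left out. NFD replicate 3 was the highest library for 17 of the 27 tested genes of complex I (63%, against 21.2% of all tested genes). The gene at -0.49 was ndufb6 (MSTRG.20804), an accessory subunit of the proton-pumping part, at 3.09, 2.52 and 1.94 FPKM in HFD, against 2.68, 3.72 and 4.93 FPKM in NFD. The libraries overlapped, and the log2 fold change of -0.49 ± 0.27 (SE) did not pass (limma, adjusted p = 0.898). The 14 members of the arm had mean levels between 1.24 FPKM (ndufa3) and 28.2 FPKM (ndufb5) over the 6 libraries. Ndufa8 was the only one higher in HFD, at 10.6 ± 1.01 FPKM in HFD and 9.87 ± 0.871 FPKM in NFD (SD, n = 3 each). NDUFA4 (MSTRG.6088), named for complex I but known from mammals as a subunit of complex IV, was at 30.04, 28.7 and 32.7 FPKM in HFD, against 28.5, 29.9 and 33.3 FPKM in NFD. Its log2 fold change was -0.0044 ± 0.18 (SE), above 0 with trimmed-mean centring or quantile normalization, and it was the steadiest of the tested members, with a highest library 1.17 times the lowest. Its relative ndufa4l2b was listed at 0 in all libraries.

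Complex II, which is also the succinate dehydrogenase of the citric acid cycle, had 2 of its 3 genes higher in HFD, and its median log2 fold change was 0.16, or -0.11 without NFD replicate 2. SDHB (MSTRG.16298), its iron-sulfur subunit, was at 3.19, 7.45 and 3.63 FPKM in HFD, against 3.42, 3.34 and 2.88 FPKM in NFD. HFD replicate 2 alone was high, and the log2 fold change was 0.42 ± 0.32 (SE; limma, adjusted p = 0.919) with it and 0.07 without it. Sdha (MSTRG.8294), the flavoprotein that oxidises succinate, was at 15.3, 14.99 and 11.5 FPKM in HFD, against 14.0, 14.0 and 16.1 FPKM in NFD. Sdhdb (MSTRG.31331), a membrane anchor, was at 7.95, 9.86 and 8.48 FPKM in HFD, against 9.51, 4.01 and 11.95 FPKM in NFD. Both overlapped between diets, with log2 fold changes of -0.08 ± 0.20 for sdha and 0.16 ± 0.39 for sdhdb (SE). Sdha was above 0 without HFD replicate 3, and sdhdb was below 0 without NFD replicate 2, its low library. The other anchor, sdhc, was not analysed here.

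Complex III passes electrons from ubiquinone to cytochrome c through an iron-sulfur protein and cytochrome c1. Its core protein uqcrc1 (MSTRG.7015) was at 12.9, 15.6 and 15.2 FPKM in HFD, against 13.2, 16.4 and 20.3 FPKM in NFD. The other core protein, uqcrc2a (MSTRG.28554), was at 5.91, 5.51 and 6.24 FPKM in HFD, against 6.01, 7.83 and 8.68 FPKM in NFD. Both overlapped between diets and were highest in NFD replicate 3, with log2 fold changes of -0.17 ± 0.22 for uqcrc1 and -0.31 ± 0.20 for uqcrc2a (SE; limma, adjusted p = 0.951 and 0.919). Cytochrome c1, cyc1, was at 7.95 ± 0.290 FPKM in HFD and 8.43 ± 1.298 FPKM in NFD (SD, n = 3 each).

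The Rieske iron-sulfur protein was listed under a pair of gene IDs that behaved differently. The gene uqcrfs1 (MSTRG.41520) was at 8.44, 9.93 and 8.68 FPKM in HFD, against 8.15, 9.63 and 10.9 FPKM in NFD, with overlapping libraries and a log2 fold change of -0.07 ± 0.19 (SE), which was above 0 without NFD replicate 3. The gene UQCRFS1 (MSTRG.13288) was at 8.67, 2.34 and 2.003 FPKM in HFD, against 7.01, 5.21 and 4.98 FPKM in NFD. HFD replicate 1 was its highest library and HFD replicates 2 and 3 its lowest, the same pair that was near 0 for ndufa5; the log2 fold change was -0.62 ± 0.51 (SE; limma, adjusted p = 0.919). It was -1.21 without HFD replicate 1, -0.36 without HFD replicate 2 and -0.27 without HFD replicate 3. Their sequences were not compared here, and how the authors' counting treats fragments that match both genes of such a pair is not given in the sources used here, so their separate levels are uncertain. The accessory subunit uqcrb and UQCRHL, which resembles the hinge subunit, were listed at 0 in all libraries.

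Complex IV reduces oxygen to water. COX5A (MSTRG.334) was at 47.5, 34.4 and 43.4 FPKM in HFD, against 29.9, 41.8 and 49.8 FPKM in NFD, and its NFD libraries enclosed the HFD range. The related cox5aa (MSTRG.8604) was at 9.43, 7.95 and 8.77 FPKM in HFD, against 4.17, 10.7 and 10.01 FPKM in NFD, with NFD replicate 1 alone low. The log2 fold changes were 0.06 ± 0.26 for COX5A and 0.17 ± 0.36 for cox5aa (SE); both were below 0 without NFD replicate 1, and COX5A also without HFD replicate 1. COX7A2 (MSTRG.12709), a small subunit of the liver type in mammals, was at 18.3, 17.0 and 19.8 FPKM in HFD, against 17.9, 21.9 and 22.3 FPKM in NFD. Cox7c (MSTRG.27960) was at 3.89, 5.21 and 5.24 FPKM in HFD, against 4.77, 5.45 and 7.14 FPKM in NFD. Both overlapped, with log2 fold changes of -0.17 ± 0.19 for COX7A2 and -0.24 ± 0.22 for cox7c (SE; limma, adjusted p = 0.934 and 0.919).

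The remaining genes of complex IV include the least abundant of the tested members. Cox4i2 (MSTRG.29907), an isoform of subunit 4 tied to low oxygen in mammals, was at 0.422, 0.551 and 0.496 FPKM in HFD, against 0.5, 0.533 and 0.612 FPKM in NFD. Cox6c was at 8.38 ± 0.420 FPKM in HFD and 8.66 ± 1.91 FPKM in NFD (SD, n = 3 each). Cox7a2l, known from mammals for joining complexes III and IV into supercomplexes, was at 9.71 ± 1.44 FPKM in HFD and 9.77 ± 2.13 FPKM in NFD (SD, n = 3 each). Cox6b1 lay between 0.0615 and 0.113 FPKM in all libraries and was not tested.

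Complex V held the gene with the smallest p of all members. Atp5l (MSTRG.32580), subunit g of the membrane part that helps ATP synthase form dimers, was at 5.09, 6.11 and 8.05 FPKM in HFD, against 9.85, 13.4 and 11.4 FPKM in NFD. All 3 HFD libraries lay below all 3 NFD libraries. Its log2 fold change was -0.81 ± 0.23 (SE; limma, unadjusted p = 0.0120, adjusted p = 0.708), and it stayed between -0.98 and -0.67 under every alternative, none of which gave an adjusted p below 0.604. Atp5mc1 (MSTRG.40608), which forms the rotating c ring, was at 12.2, 10.45 and 13.8 FPKM in HFD, against 16.04, 20.8 and 14.1 FPKM in NFD. Its libraries did not overlap either, though 13.8 FPKM in HFD and 14.1 FPKM in NFD nearly met, and the log2 fold change was -0.46 ± 0.22 (SE; limma, adjusted p = 0.888). The third tested membrane subunit, atp5mf (subunit f), was at 18.2, 21.3 and 14.995 FPKM in HFD, against 13.1, 30.2 and 27.6 FPKM in NFD, so NFD replicate 1 was its lowest library.

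In the catalytic head, F1, 4 of 5 tested genes were lower in HFD (median log2 fold change -0.19). Atp5f1d (MSTRG.3401), the delta subunit of the central shaft, was at 11.6, 11.7 and 11.3 FPKM in HFD, against 11.8, 14.6 and 17.3 FPKM in NFD. Its libraries did not overlap because NFD replicate 1 lay just above the HFD libraries, and the log2 fold change was -0.31 ± 0.20 (SE; limma, adjusted p = 0.919). The alpha subunit was listed under a pair of gene IDs. ATP5F1A (MSTRG.19768) was at 38.9, 44.9 and 44.5 FPKM in HFD, against 36.5, 41.6 and 42.4 FPKM in NFD. Atp5fa1 (MSTRG.11655) was at 13.5, 11.6 and 13.3 FPKM in HFD, against 13.3, 16.8 and 16.5 FPKM in NFD. Both overlapped, with log2 fold changes of 0.09 ± 0.18 for ATP5F1A and -0.26 ± 0.19 for atp5fa1 (SE). The catalytic beta subunit, atp5f1b, was at 16.5 ± 2.18 FPKM in HFD and 17.1 ± 1.86 FPKM in NFD (SD, n = 3 each), and its difference of -0.05 on the log2 scale was 0.0026 with quantile normalization. The epsilon subunit, atp5f1e, was at 18.01 ± 3.87 FPKM in HFD and 20.7 ± 4.43 FPKM in NFD.

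The stalk subunit atp5po (MSTRG.26165), known as OSCP, was the most abundant member of the whole set, at 90.2, 61.2 and 83.4 FPKM in HFD, against 68.01, 68.6 and 83.6 FPKM in NFD. HFD replicates 1 and 2 were its highest and lowest libraries, and the log2 fold change was 0.08 ± 0.23 (SE), below 0 without HFD replicate 1. The stalk subunit d, atp5pd, was at 26.8 ± 4.09 FPKM in HFD and 32.8 ± 8.92 FPKM in NFD (SD, n = 3 each). Atp5if1b (MSTRG.22475), an inhibitor that blocks ATP hydrolysis by the enzyme, was at 3.53, 1.24 and 3.33 FPKM in HFD, against 1.37, 3.17 and 0.270 FPKM in NFD. Its libraries varied 13.1-fold and overlapped between diets. The gamma subunit atp5f1c and the c ring gene ATP5MC2 stayed under 0.5 FPKM in every library, at most 0.364 and 0.361 FPKM.

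Over all complexes, 7 of the 53 members had libraries that did not overlap between diets (13.2%, against 11.6% of all tested genes). All 7 were lower in HFD (13.2%, against 6.15% of all tested genes), 4 in complex I and 3 in complex V, and for all but ndufa5 and atp5l the log2 fold change was within 0.5 of 0. Complexes II, III and IV had none.

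**Figure D3:**
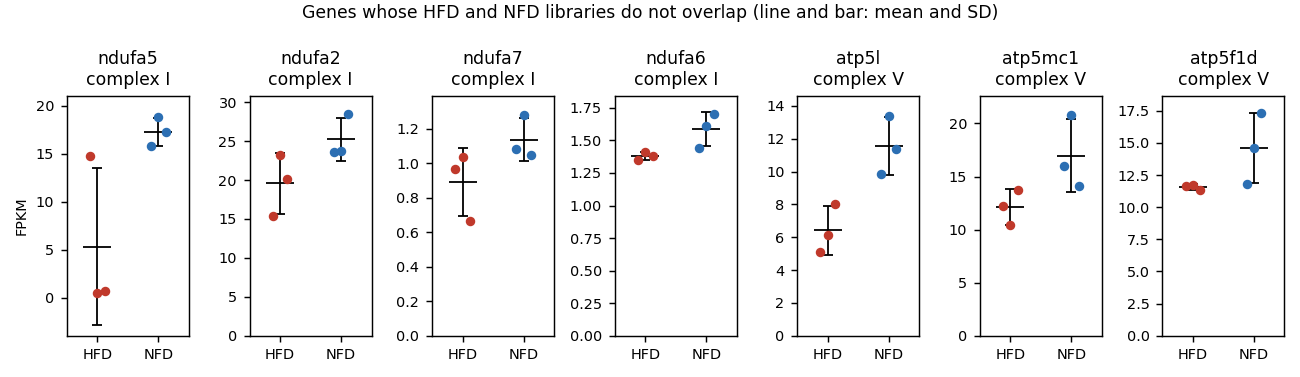
FPKM in each library (points) of the 7 genes whose HFD (red) and NFD (blue) libraries do not overlap, with mean (line) and SD (bar) of the 3 libraries of a diet; each panel has its own scale. The groups are well apart only for atp5l, at 6.42 ± 1.502 FPKM in HFD and 11.5 ± 1.77 FPKM in NFD, and for ndufa5 HFD replicate 1 sits just under the NFD libraries.

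Several subunit transcripts were near 0 in some libraries and abundant in others, in patterns that differed from gene to gene. Within UQCRFS1 the transcript ENSONIT00000013102 was at 7.15, 0.809 and 0.587 FPKM in HFD, against 6.29, 3.20 and 4.27 FPKM in NFD. Another transcript of that gene ID (ENSONIT00000013101) was at 1.51, 1.53 and 1.38 FPKM in HFD, against 0.717, 2.01 and 0.703 FPKM in NFD. Ndufv2, a core subunit of complex I, had a transcript (ENSONIT00000023283) at 1.28 FPKM in HFD replicate 2 and 1.92 FPKM in NFD replicate 2, and at or below 0.0347 FPKM in the other libraries. The gene IDs with several names, which are outside the 61 members, showed the same kind of value and were singled out after their values were seen. Cox4i1, the common isoform of subunit 4 of complex IV, was at 42.5, 0.781 and 0.654 FPKM in HFD, against 0.490, 48.0 and 36.9 FPKM in NFD. Atp5pb, subunit b of the ATP synthase stalk, was at 0.379, 11.96 and 13.03 FPKM in HFD, against 0.177, 10.9 and 14.1 FPKM in NFD. The low libraries of cox4i1 and atp5pb came from both diets, whereas those of ndufa5 were both HFD libraries. The third such gene ID carries cox6a1, which was listed at 0, together with pla2g1b.

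**Figure D4:**
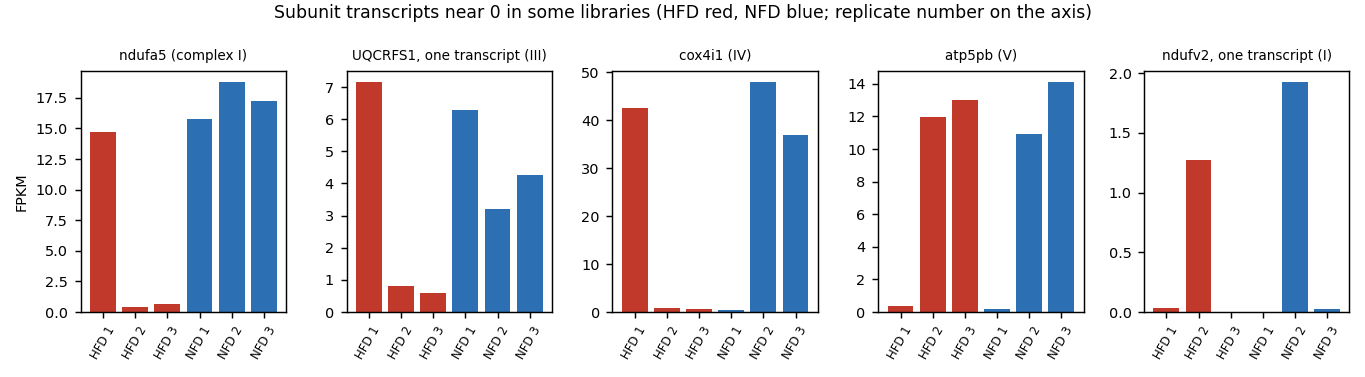
FPKM per library of 5 subunit transcripts, HFD in red and NFD in blue, each panel with its own scale from 0. HFD replicates 2 and 3 are low for ndufa5 and for a UQCRFS1 transcript, NFD replicate 1 joins them for cox4i1, replicate 1 of both diets is low for atp5pb, and a ndufv2 transcript appears in replicate 2 of both diets.

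Long non-coding RNAs of the second table shared the gene ID of 2 members. For atp5if1b, MSTRG.22475.2 was at 1.64, 0.553 and 0.486 FPKM in HFD, against 2.26, 1.58 and 3.85 FPKM in NFD. MSTRG.22475.3 was at 0.0025, 1.31 and 1.83 FPKM in HFD, against 0.598, 2.14 and 3.04 FPKM in NFD. Both were highest in NFD replicate 3, the library in which atp5if1b itself was lowest, and they were set beside it after these values were seen, without a test. For ndufa3, MSTRG.18923.2 was at 1.11, 0.515 and 0.540 FPKM in HFD, against 0.697, 0.136 and 0.388 FPKM in NFD. The 2 tables were scaled by the authors in a way that is not given in the sources used here, so levels are not compared between them.

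With all libraries and on the deposited scale, the summed level was lower in HFD for each complex but complex II. Complex I summed to 273.8 ± 8.17 FPKM in HFD and 310.8 ± 37.4 FPKM in NFD (SD, n = 3 each). Within NFD the sums were 279.7, 300.4 and 352.3 FPKM, so replicate 3 stood above the others. Complex III summed to 41.8 ± 1.80 FPKM in HFD and 47.9 ± 6.52 FPKM in NFD, and complex V to 246.5 ± 17.8 FPKM in HFD and 268.5 ± 36.7 FPKM in NFD. All of these means were lower in HFD, by less than 1 SD of the NFD libraries. Complex II was at 27.5 ± 4.42 FPKM in HFD and 26.4 ± 4.84 FPKM in NFD, and complex IV at 92.3 ± 8.77 FPKM in HFD and 94.4 ± 20.05 FPKM in NFD. The ratio of HFD to NFD means was 0.881 for complex I, 1.04 for complex II, 0.873 for complex III, 0.978 for complex IV and 0.918 for complex V. With trimmed-mean centring these ratios were 0.892, 1.05, 0.885, 0.998 and 0.932, so complex IV was then nearly level. Without NFD replicate 3, on the deposited scale, the ratios were 0.944, 1.14, 0.938, 1.065 and 0.973. The ratios of complexes II and IV also turned with other libraries: complex II was at 0.949 without HFD replicate 2 and 0.949 without NFD replicate 2, and complex IV at 1.03 without HFD replicate 2 and 1.02 without NFD replicate 2. The sums leave out the gene IDs with several names, among them the one that holds cox4i1. With those IDs counted, including their other genes, the ratio was 0.879 for complex IV and 0.921 for complex V. Each sum is led by a few abundant genes, such as atp5po in complex V and COX5A in complex IV.

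**Figure D5:**
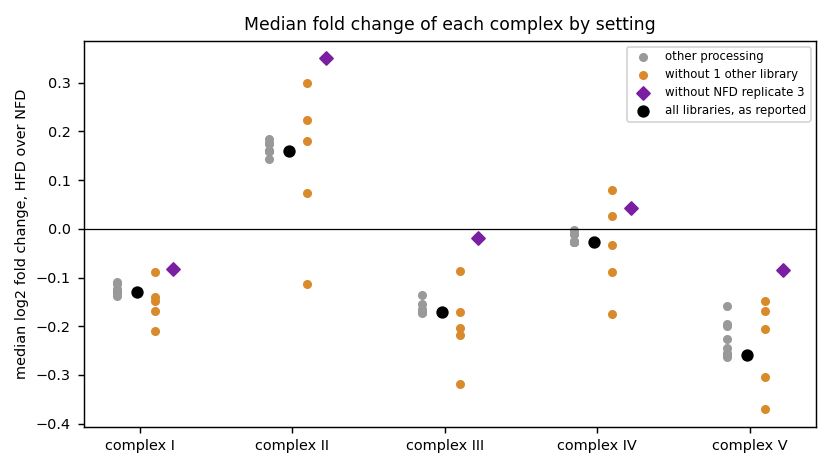
Median log2 fold change, HFD over NFD, of the tested genes of each complex with all libraries (black), under other processing (grey), without 1 other library (orange) and without NFD replicate 3 (purple). Leaving out single libraries moves the medians more than other processing does; without NFD replicate 3 the medians are -0.08 for complex I, 0.35 for complex II, -0.02 for complex III, 0.04 for complex IV and -0.08 for complex V.

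The genes around the respiratory chain gave no member past the threshold in any of 6 lists: in limma 0 had an adjusted p under 0.05. At an unadjusted p under 0.05 there were 2 assembly factors and 1 gene each in the citric acid cycle, import and nucleotide exchange lists, in all 5 of 95 tested genes (5.26%, against 6.02% of all tested genes). Over all tested genes 49.6% were lower in HFD, and the counts of the lists were not repeated with single libraries left out. Among 23 tested assembly factors 15 were lower in HFD and 8 were higher, and the median log2 fold change was -0.11. The complex I assembly factor tmem126a was at 0.632, 0.499 and 0.525 FPKM in HFD, against 1.15, 0.942 and 0.971 FPKM in NFD, and its libraries did not overlap (log2 fold change -0.53 ± 0.16 SE; limma, adjusted p = 0.740). Sdhaf4, which assists the assembly of complex II, was at 0.213, 0.696 and 0.445 FPKM in HFD, against 0.932, 0.975 and 1.15 FPKM in NFD, also without overlap (-0.70 ± 0.23 SE; limma, adjusted p = 0.756). Among 15 tested genes of electron carriers and electron entry 9 were lower and 6 were higher in HFD (median -0.10). The ubiquinone synthesis gene coq8b was at 1.87 ± 0.440 FPKM in HFD and 1.37 ± 0.0263 FPKM in NFD, and coq5 at 0.532 ± 0.0609 FPKM in HFD and 0.733 ± 0.130 FPKM in NFD (SD, n = 3 each).

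In the citric acid cycle with pyruvate dehydrogenase, 10 of 15 tested genes were lower in HFD and 5 were higher (median -0.18). Pdha1a, the alpha subunit of pyruvate dehydrogenase, was at 8.98, 9.17 and 11.7 FPKM in HFD, against 13.4, 14.2 and 17.0 FPKM in NFD. Its libraries did not overlap, and the log2 fold change was -0.56 ± 0.20 (SE; limma, adjusted p = 0.784). Suclg2, of succinyl-CoA ligase, was at 1.86 ± 0.352 FPKM in HFD and 1.34 ± 0.312 FPKM in NFD (SD, n = 3 each). Of 22 genes of protein import and mitochondrial membranes 17 were lower and 5 higher (median -0.19), and the small import chaperones timm13 and timm10 were at 0.540 ± 0.169 and 1.49 ± 0.515 FPKM in HFD, against 1.19 ± 0.335 and 2.53 ± 0.646 FPKM in NFD (SD, n = 3 each). Of 13 regulators of mitochondrial gene expression 8 were lower and 5 higher (median -0.07). Lrpprc, which stabilises mitochondrial mRNAs, was at 2.52 ± 1.01 FPKM in HFD and 1.26 ± 0.978 FPKM in NFD, and the mitochondrial RNA polymerase polrmt at 0.994 ± 0.208 FPKM in HFD and 0.549 ± 0.605 FPKM in NFD (SD, n = 3 each), both with overlapping libraries.

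Of the genes of nucleotide exchange and uncoupling, 5 of 7 tested were higher in HFD and 2 lower, with a median of 0.15. Over all 9204 tested genes 4638 were higher, and 7 genes are too few to give the list a direction. Some varied widely between libraries, such as ucp1 from 0.114 to 55.9 FPKM and slc25a24 from 0.111 to 8.34 FPKM. Slc25a25a, a carrier that exchanges ATP-magnesium for phosphate across the inner membrane, was at 2.34, 1.71 and 1.80 FPKM in HFD, against 0.322, 0.345 and 0.814 FPKM in NFD. All 3 HFD libraries lay above the NFD libraries, with a log2 fold change of 1.33 ± 0.24 (SE; limma, unadjusted p = 0.00141, adjusted p = 0.417).

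The tissue label could be checked against hepatocyte markers, of which 9 were found and none was listed at 0 in all 6 libraries. Only 6 of the 9 had enough FPKM to be tested. C3 was listed at 0 in HFD replicates 2 and 3 and NFD replicate 3, and fetub reached at most 0.368 FPKM. Their summed FPKM ran from 523.7 to 1142 in HFD and from 1358 to 4780 in NFD, led in NFD replicates 1 and 3 by the fibrinogen chain fgb, at 3857 and 3101 FPKM there and between 0.835 and 1.18 FPKM in the other 4 libraries. Exocrine pancreas markers, 7 of 7 tested, summed to 6612, 4580 and 17704 FPKM in HFD, against 16454, 7816 and 3916 FPKM in NFD. The largest part of each sum was prss1, at 10472 FPKM in HFD replicate 3 and 2306 FPKM in NFD replicate 3. Cpa1 ranked otherwise, with its lowest level in HFD replicate 1, at 12.1 FPKM, against 18.9 FPKM in NFD replicate 3. NFD replicate 3, the library highest for most members, thus held the least pancreatic RNA by the summed markers. NFD replicate 1, the lowest for 18 members, was second only to HFD replicate 3. The HFD libraries did not follow this order. The members' median deviation was -0.03 in HFD replicate 3, which held the most, and -0.08 in HFD replicate 2, at 4580 FPKM. After trimmed-mean centring, NFD replicate 1 was the lowest library for only 5 members. The part of pancreatic RNA in the members' differences between libraries was not tested. Of 12 markers of skeletal muscle 5 were listed at 0, which can be a failed estimate, and the others summed to at most 1.37 FPKM in HFD and 2.97 FPKM in NFD. Endothelial markers (5 tested) summed to between 9.66 and 14.6 FPKM in HFD and between 5.79 and 12.3 FPKM in NFD. Bile duct markers (5 tested) summed to between 217 and 263 FPKM in HFD and between 223 and 286 FPKM in NFD. Of these, krt8 alone made up between 208 and 257 FPKM in HFD and between 217 and 275 FPKM in NFD. The next highest bile duct marker, epcam, reached at most 9.74 FPKM. Macrophage markers (4 tested) summed to between 411.7 and 435.6 FPKM in HFD and between 299.1 and 861.9 FPKM in NFD, of which LYZ alone made up 829.2 FPKM in NFD replicate 3. The complement gene c1qc and the receptor csf1ra did not follow LYZ, at 14.96 and 6.95 FPKM in that library. No marker of these lists had an adjusted p under 0.05 in limma; 1 had an unadjusted p under 0.05, the hepatocyte gene fgb.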

How the data were processed

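Liver RNA of 3 HFD and 3 NFD libraries was analysed from the deposited FPKM tables, 1 column per library; FPKM is the authors' unit, per the file headers. Tools listed without roles in the submitters' processing notes are StringTie 1.3.0, HISAT2 2.0.4, edgeR 3.22.3, cutadapt 1.10 and FastQC 0.10.1. Neither genome build, annotation nor strand setting is given in the sources used here. A value of 0.0001, taken as no estimate, was set to 0. Transcripts were summed per gene ID (510 IDs carry several names). Log2(FPKM + 0.5) was fitted over all genes with at least 0.5 FPKM in 3 libraries in limma 3.58.1 under R 4.3.3 (lmFit, eBayes with variance trend, diet as the only term), two-sided, with Benjamini-Hochberg adjustment over all 9204 genes and a threshold of 0.05. Fold changes understate low genes. No counting interval is given, since depth is unknown. The fit was also run on simulated data, drawn independently for each gene and library. Those data did not copy shifts shared by the genes of a library, so they cannot show how the fit handles them.

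Members and gene lists were chosen with earlier results of these data known. Lists matched gene symbols, allowing the suffix of a duplicated fish gene, among gene IDs with 1 name. Values by library are given for the 2 most abundant members and up to 4 members with the smallest p in each complex, for members without overlap between diets, and for members singled out after their values were seen (ndufs3, atp5mf, atp5if1b); each list gives its 2 genes with the smallest p. Some genes are not reported here. Alternatives covered pseudocounts of 0.1 and 1, filters, trimmed-mean centring, quantile normalization, the variance trend, the highest transcript, gene IDs with several names, the replicate number as a block and leaving out each library. Figures used matplotlib 3.10.9.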

Additional observations from a re-analysis of the deposited data

How the results depend on the processing

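No member passed the adjusted threshold under any alternative, and over all genes 0 to 4 did when 1 library was left out (4 without NFD replicate 2). Depth in reads is unknown. Without 1 library, genes lower in HFD numbered 16 (without NFD replicate 3) to 26 (without NFD replicate 1) in complex I, 0 (without HFD replicate 3) to 2 (without NFD replicate 2) in complex II, 3 (without NFD replicate 3) to 5 in complex III, and 2 (without NFD replicate 2) to 7 (without NFD replicate 1) in complex IV. The complex V median log2 fold change ran from -0.37 (without NFD replicate 1) to -0.083 (without NFD replicate 3). With HFD replicate 2 and NFD replicate 3 both left out, chosen after seeing the data, complex I had 14 genes lower and the complex V median was -0.087. NDUFA4 turned to 0.011 with trimmed-mean centring and 0.096 with quantile normalization. Among the members named by level, p or lack of overlap, some log2 fold changes turned sign without 1 library. They ran from -0.055 to 0.058 (NDUFA4), -0.12 to 0.27 (ndufa12), -0.15 to 0.046 (sdha) and -0.28 to 0.46 (sdhdb). The others ran from -0.18 to 0.021 (uqcrfs1), -0.14 to 0.22 (COX5A), -0.24 to 0.39 (cox5aa) and -0.032 to 0.25 (atp5po). Members outside this choice turned too and are not listed here. All members lower in HFD went from 42 of 53 to 30 of 52 without NFD replicate 3, where 47.1% of all tested genes were lower. The cause was not tested. Deviations of libraries with the same replicate number correlated at -0.005, -0.20 and -0.11, against -0.13 to 0.20 for different numbers. These values cannot show how libraries were prepared, and whether equal numbers mark a shared preparation was not tested. With the number as a replicate block 0 genes and 0 members passed, and 412 genes had an unadjusted p under 0.05, against 554 without it. Of all 53 tested members, quantile normalization also turned ndufb5 (0.040) and atp5f1b (0.0026), and no other planned processing that kept all libraries turned one.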
